A study of Mus musculus with 80 samples.

Results

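Ribosome-bound RNA was set against the RNA of the cleared homogenate of the same cells. The cells were microglia that had been sorted on the MACSQuant Tyto, a cartridge-based cell sorter. Of the 80 libraries in the series, 10 made up this comparison, 1 Tyto-Input and 1 Tyto-TRAP library from each of 5 mice, called mouse 1 to mouse 5 here. They are all the libraries of cells that went through the Tyto alone, without an autoMACS step before it. The mice carried Cx3cr1(Jung)-cre/Ert2 and NuTRAP, and tamoxifen had been given at about 3 months of age at 100 mg/kg, so that cells expressing Cx3cr1 bore an eGFP tag on their ribosomes. All 10 libraries shared this genotype and treatment, and the 2 fractions of a mouse differed in the pull-down. Cx3cr1 is also expressed by macrophages at the borders of the brain, so the tag was not limited to microglia. Brain tissue was dissociated with papain, cleared of debris, and sorted for cells positive for CD11b, CD45, and eGFP. The sorted cells were homogenised, part of the cleared homogenate was kept as Input, and the rest went through an anti-GFP pull-down to give TRAP. The question of the comparison is what the pull-down still changes once the cells have been sorted.

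Translating ribosome affinity purification (TRAP) recovers an mRNA through the tagged ribosomes that sit on it. Long coding sequences can carry many ribosomes, short ones few, and RNAs held in the nucleus carry none. Some mRNAs are kept off ribosomes by their 5′ ends. Ferritin mRNAs bear an iron-responsive element, a stem-loop that iron regulatory proteins bind when iron is scarce, and mRNAs of ribosomal proteins begin with a run of pyrimidines through which growth signals adjust their translation. TRAP can also lower RNA of cells that lack the tag, since such RNA is in the Input homogenate but not on tagged ribosomes. In such bulk libraries, fewer cells of a type and less RNA per cell cannot be told apart.

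Total expected counts were 11300738 to 16223660 (median 14024401) in Tyto-Input and 14788255 to 19737376 (median 16679237) in Tyto-TRAP, so TRAP was the deeper fraction. Of 15919 genes listed, 12088 had more than 5 counts in every library of at least 1 fraction and were tested in edgeR's quasi-likelihood fit with the mouse as a block. Levels are CPM, counts per 1000000 of the normalized library size, which do not correct for gene length and are compared here only within a gene. A gene is said to have risen or fallen where its adjusted p (Benjamini-Hochberg, 12088 genes) was under 0.1, and is called higher or lower where its fold was also over 2. The label was checked with 6 microglial markers, whose summed level was 24800 to 29100 CPM in Tyto-Input and 34000 to 37100 CPM in Tyto-TRAP. All but Tmem119 (0.07 on the log2 scale, adjusted p = 0.135) of these 6 rose. Female and male mice were mixed, since mouse 2 alone had Xist (1292 Input and 445 TRAP reads, against at most 14 elsewhere).

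TRAP and Input of the Tyto-sorted cells differed in many genes by a little and in few abundant genes by much. In all, 1270 genes (10.5%) were called, 6 of them higher (0.0496%) and 1264 lower (10.5%) in TRAP. With no demand on the fold, 3621 genes rose (30.0%) and 4134 fell (34.2%). In 1664 genes (13.8%) every TRAP library lay above every Input library, and in 2226 (18.4%) every TRAP library lay below. The median log2 fold change over all genes was -0.0257, with a median standard error of 0.0821.

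The calls toward lower values lay mostly in genes with few reads. Genes with a mean under 1 CPM over the 10 libraries were called lower in 56% of cases, those at 1 to 5 CPM in 29.7%, those at 5 to 20 CPM in 5.65%, and those at 20 to 100 CPM in 1.62%. The median log2 fold change moved from -1.26 under 1 CPM to 0.156 at 100 to 1000 CPM and 0.303 over 1000 CPM. Of the 1264 genes called lower, 771 had passed the filter through Input alone, which such a gene does only if it is low in TRAP. Among the 11056 genes that passed it in both fractions, 4 were called higher and 491 lower (4.44%), with a median of 0.0116. At 20 CPM or more, a limit chosen after the data were seen, 6711 genes were left, with 1 called higher and 125 lower (1.86%).

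**Figure D1:**
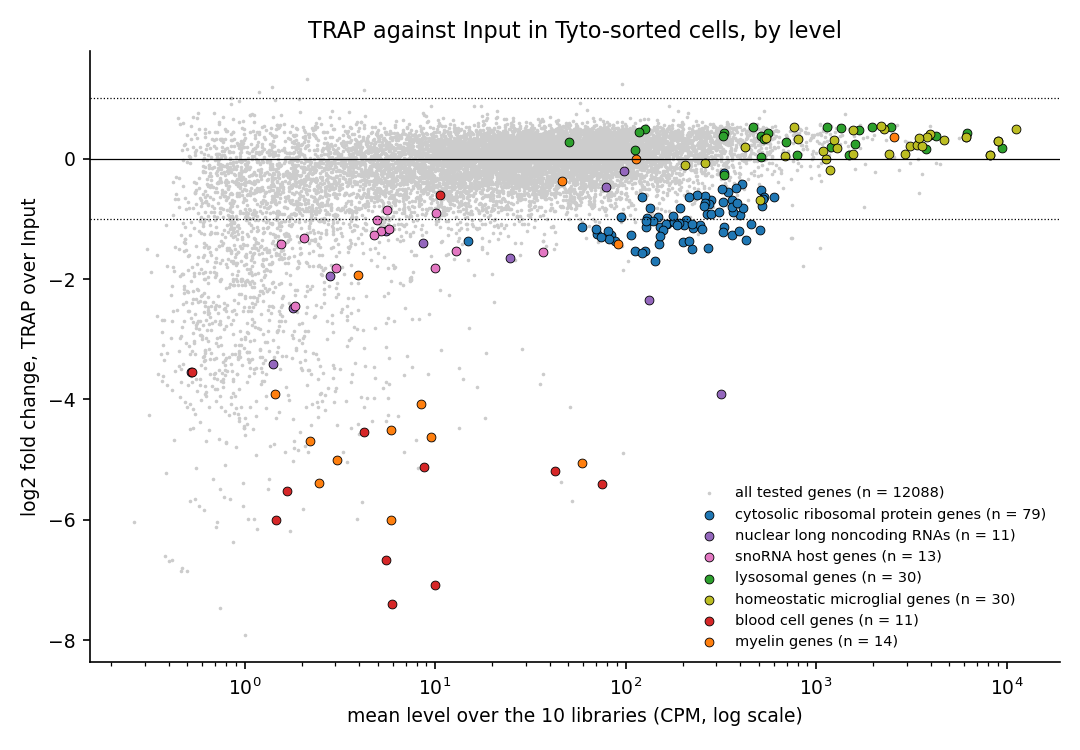
The log2 fold change of TRAP over Input (y axis) is plotted against the mean level of each of the 12088 tested genes in CPM (x axis, log scale), with 7 gene lists in colour, all other genes in grey, and dotted lines at a 2-fold change. The large falls sit at the low levels on the left, and the cloud of genes over 100 CPM lies slightly above 0.

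Ribosomal protein genes were the largest single group among the abundant genes called lower. They made up 44 of the 125 genes called lower at 20 CPM or more (35.2%), against 1.16% of all genes at that level. Genes with a coding length under 500 bases that were not ribosomal protein genes made up a further 27 (21.6%, against 5.86%). Markers of other cell types, blood, and myelin contributed 9 (7.2%, against 1.98%). Only ribosomal protein genes were left out of the short genes, so a gene of these markers could be counted in both classes. Nuclear noncoding RNAs and snoRNA hosts contributed 4 (3.2%, against 0.0894%), which are 4 of the 6 such genes at that level.

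The ferritin genes had the largest falls among genes with over 1000 CPM in Input. Fth1, the ferritin heavy chain that oxidises iron for storage, lies at chr19:9982646-9985111 (+ strand, mm10). Ftl1, the light chain, lies at chr7:45457944-45459886 (- strand). The 5′ UTRs of both hold the iron-responsive element, and so do those of Slc40a1 (ferroportin, the iron exporter) and Alas2 (heme synthesis in red cells). These elements are shown because Fth1 and Ftl1, the called genes with the most reads, both hold one. The capitals mark the loop, CAGTGN with any base but G at N. The search asked for this loop between 5 paired bases on each side, with an unpaired C just before the first 5, on the transcribed strand of GENCODE vM21 transcripts (GRCm38).
Fth1: ttcctgcttcaaCAGTGCttgaacggaa
Ftl1: gtcttgcttcaaCAGTGTttgaacggaa
Slc40a1: caacttcagctaCAGTGTtagctaagtt
Alas2: ttggttcgtcctCAGTGCagggcaacag
They lie at chr19:9982732-9982759 (+), chr7:45459780-45459807 (-), chr1:45925466-45925493 (-), and chrX:150547458-150547485 (+).

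Fth1 stood at 1310, 1480, 1440, 1150, and 1210 CPM in the Input of mice 1 to 5 and at 346, 394, 407, 388, and 380 CPM in their TRAP. Every TRAP library was below every Input library, and the TRAP values were close to each other. The log2 fold change was -1.78 ± 0.0498 (SE; adjusted p = 1.08e-13), or 3.43-fold lower. Ftl1 stood at 1490, 1640, 1660, 1330, and 1650 CPM in Input and 468, 577, 583, 537, and 621 CPM in TRAP, again with no overlap (-1.48 ± 0.0454, adjusted p = 2.13e-13, 2.79-fold lower). Together the 2 genes held 0.297 ± 0.0252% of Input reads and 0.0908 ± 0.00734% of TRAP reads (SD, n = 5), lower in 5 of 5 mice. An exact two-sided sign-flip test over the 5 mice gave p = 0.0625, the smallest that its 32 flips allow. The other iron genes, chosen after their values were seen, moved less or rested on few reads. Slc40a1 went from 204 ± 25.3 to 163 ± 21.2 CPM (-0.33 ± 0.049, adjusted p = 2.34e-05, edgeR). Alas2, with a mean of 4.23 CPM, was called lower at -4.54, and it is one of the blood cell genes described further on. The transferrin receptor Tfrc, whose element lies at the other end of its mRNA, rose by 0.30 (18.3 to 22.5 CPM).

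The loop with its stem was found in 12 of 11447 tested genes with a 5′ UTR (0.105%), and the letters CAGTG alone in 2603 (22.7%). Of the 12 genes, 6 were called lower (50.0%, against 10.5% of all genes). In all, 7 fell (34.2% of all genes did) and 2 rose (30.0%). Fth1 and Ftl1, which led to the search, are among the 6 and enter the median below. The share and the median therefore do not test the element apart from that choice. Of the 6, Alas2, Nfib, and Ppp1r1b had means of 4.23, 1.89, and 1.94 CPM, in the range of 1 to 5 CPM where 29.7% of all genes were called lower. The median log2 fold change of the 12 was -0.729, against -0.0108 for genes with CAGTG alone or in the stem-loop and -0.00814 for genes without it. Vti1b, a vesicle fusion protein, was called at -1.13, while Eif2s1, a subunit of the initiation factor eIF2, was at 0.01 and Ecd rose by 0.33. The letters alone went with nearly equal medians, and members with the stem-loop were spread from falls to rises.

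Genes of the cytosolic ribosome fell as a whole group. Of 80 such genes listed, 79 were tested. All 79 fell (34.2% of all genes did), with every TRAP library below every Input library (18.4% of all genes). Of the 79, 45 were called lower (57%, against 10.5% of all genes). Their median log2 fold change was -1.07, and the members ranged from -1.71 to -0.234. By mouse, the median was -1.16, -1.15, -1.08, -0.799, and -1.0 for mice 1 to 5. The share of reads on these genes went from 2.62 ± 0.223% in Input to 1.29 ± 0.0585% in TRAP (SD, n = 5), lower in 5 of 5 mice (exact two-sided sign-flip p = 0.0625, the smallest possible).

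Rpl13a, the member with the most reads among the called genes, stood at 744, 734, 774, 603, and 690 CPM in Input and at 305, 303, 322, 319, and 311 CPM in TRAP (-1.18 ± 0.0507, adjusted p = 1.04e-11). Rpl32, with the largest fall of the group, stood at 225, 230, 231, 187, and 218 CPM in Input and at 59.4, 61.8, 71.1, 71.5, and 70.2 CPM in TRAP (-1.71 ± 0.0671, adjusted p = 3.28e-12). For both genes the gap between the fractions was several times the spread between mice. Rps12 went from 397 ± 44.3 to 142 ± 11.2 CPM (-1.48). Rpl4, Rps3, Rpl3, and Rps9, the members with the most reads of the whole list, fell by 0.64, 0.65, 0.68, and 0.79 and were not called. The smallest fall was that of Rpl10a (355 ± 17.5 to 302 ± 22.2 CPM, -0.23 ± 0.0471, adjusted p = 0.000422). It encodes the subunit that carries eGFP in NuTRAP, and whether reads from the transgene enter its count was not tested. Many ribosomal protein genes, and the ferritin genes, have processed pseudogenes with near-identical sequence, so some of their reads could be split.

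Transcript starts were read from RefSeq (GRCm38.p6) for 58 of the 79 genes. A start was counted as a pyrimidine start where the first base was C and the next 4 were C or T. That held in 13 of the 58 (22.4%) and in 215 of the 9708 tested genes with a start (2.21%). The 4 starts below show such runs, in capitals, followed by the rest of the first 20 bases.
Rps6: CTCTTTTTCgtgacgcctcc
Fau: CTTCCTCTTTCTTgactcca
Rpl28: CTCTTTCCgtctccggccgc
Rpl14: CTTCTCgctgagcgccgcca
They lie at chr4:86857348-86857367 (-), chr19:6057947-6057966 (+), chr7:4792965-4792984 (+), and chr9:120571517-120571536 (+). Their log2 fold changes were -1.26 for Rps6, -0.72 for Fau, -1.07 for Rpl28, and -1.10 for Rpl14, so the longest of the 4 runs went with the smallest fall. Among ribosomal protein genes the median was -1.14 with a pyrimidine start (10 of 13 called lower) and -0.979 with another start at the listed position (22 of 45 called lower). Outside the ribosomal protein genes, 202 of 9650 had a pyrimidine start, with medians of 0.0295 with it and 0.101 without it at 20 CPM or more. A listed start can lie some bases from the one used in microglia, and no match says only that the run is not at the listed base.

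Other genes of the translation machinery split. Of 43 translation factor genes tested, 14 rose and 22 fell (30.0% and 34.2% of all genes did). Their median was -0.0839, and 2 were called lower, against 10.5% of all genes. The 2 called lower were Tpt1 (1060 ± 99.8 to 423 ± 28.4 CPM, -1.32 ± 0.0539, adjusted p = 5.32e-12), the translationally controlled tumour protein, and the elongation factor subunit Eef1b2 (-1.04, which sits near the fold threshold). The elongation factor Eef1a1 fell by 0.57 (4180 to 2800 CPM), the poly(A) binding protein Pabpc1 by 0.78 (942 to 547 CPM), and Eef2 by 0.18. Initiation factors went both ways. Eif4g2, the member of these with the most reads, rose by 0.15. Of others, chosen after their values were seen, Eif3d (0.49) and Eif4a1 (0.39) rose, while Eif3h (-0.62) and Eif3f (-0.60) fell. Splicing genes showed no common direction, with 8 of 32 SR and splicing kinase genes rising and 15 falling (median -0.106). Of 10 nonsense-mediated decay factors 3 rose and 2 fell, and Smg1 fell by 0.79 (252 to 145 CPM).

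**Figure D2:**
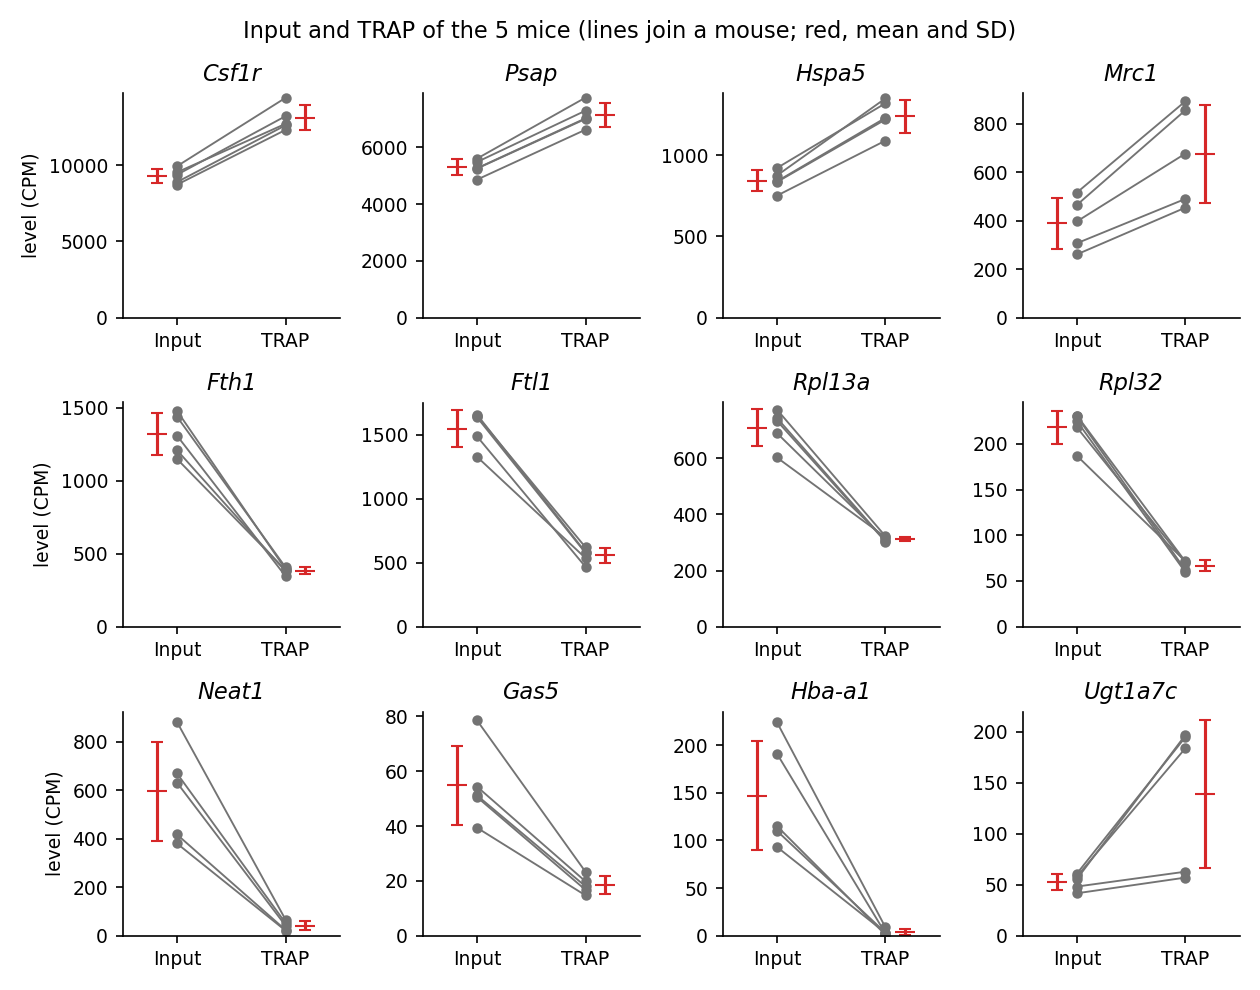
Levels in CPM (y axis) of 12 genes in the Input and TRAP library of each of the 5 mice, with a line joining the 2 libraries of a mouse and the mean and SD in red. The lines of Fth1, Ftl1, Rpl13a, Rpl32, Neat1, Gas5, and Hba-a1 run down in every mouse, those of Csf1r, Psap, Hspa5, and Mrc1 run up, and those of Ugt1a7c run up steeply in mice 1, 2, and 5 only.

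RNAs that stay in the nucleus were low in TRAP. Of 11 nuclear long noncoding RNAs tested, 11 fell and 9 were called lower (median -1.94, with 10.5% of all genes called lower), 3 of the 9 having passed the filter through Input alone. Neat1, the scaffold of paraspeckles (chr19:5842302-5845478, - strand), stood at 380, 417, 669, 881, and 631 CPM in Input and at 21.1, 23.6, 52.2, 66.2, and 41.4 CPM in TRAP. That is 15.1-fold lower (-3.91 ± 0.0692, adjusted p = 7.59e-17), and mice with more Neat1 in Input also had more in TRAP. Malat1, a nuclear speckle RNA, stood at 141, 172, 233, 392, and 141 CPM in Input and at 16, 33.5, 46.7, 118, and 26.4 CPM in TRAP (-2.35 ± 0.122, adjusted p = 1.05e-10). Mouse 4 had the highest level of both RNAs in both fractions. Peg13 (-0.21) and Kcnq1ot1 (-0.48) fell by less. Some members had low Input levels, such as Meg3 (4.5 CPM), Snhg11 (3.0 CPM), and Rian (0.973 CPM). Whether RNA of cells without the tag enters their falls was not tested. Over all noncoding genes with 20 CPM or more, 5 of 27 were called lower (18.5%), with a median of -0.435.

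Hosts of small nucleolar RNAs, which are spliced and capped but carry no long reading frame and often start with a pyrimidine run, were also low. Of 13 tested, 13 fell and 11 were called lower, against 10.5% of all genes, with a median of -1.31 and a range from -2.44 to -0.848. Of these 13, 12 had passed the filter in both fractions, 10 of them called lower, against 4.44% of all genes that had done so. Gas5 (growth arrest specific) stood at 51.2, 39.4, 54.4, 78.6, and 50.6 CPM in Input and at 18, 14.7, 19.8, 23.3, and 16.7 CPM in TRAP (-1.55 ± 0.0703, adjusted p = 1.92e-11). Snhg8 fell by 1.82 (15.6 to 4.46 CPM), and Snhg12 by 0.90, under the fold threshold. Gm20594, on chromosome 6, had the largest fall of any gene with a TRAP level over 1 CPM among the genes chosen for size, from 102 ± 18.6 to 1.98 ± 0.271 CPM (-5.69 ± 0.0941, adjusted p = 5.01e-17). Replication-dependent histone genes were few, with 10 tested, 5 fallen (34.2% of all genes did), and a median of -0.472. Hist1h1c, the member with the most reads, stood at 205 in Input and 219 CPM in TRAP (adjusted p = 0.123).

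Most genes that define microglia rose, each by less than 2-fold. Of 282 microglial markers, 191 rose and 33 fell (30.0% and 34.2% of all genes did). Of the 282, 105 had every TRAP library above every Input library (13.8% of all genes did). The median log2 fold change was 0.225, and by mouse it stayed between 0.199 and 0.254. At 20 CPM or more, where 276 of the 282 lay, it was 0.228, against 0.093 over all genes at that level. The median of all genes was 0.156 at 100 to 1000 CPM and 0.303 over 1000 CPM. The shares over all genes given here and for the lists below are thus not matched for level. Microglial markers held 19.97 ± 0.452% of Input reads and 22.4 ± 0.184% of TRAP reads (SD, n = 5), higher in 5 of 5 mice (exact two-sided sign-flip p = 0.0625, the smallest possible). The 2 markers called lower were Gngt2, a small G protein gamma subunit (76.7 to 38.3 CPM, -1.01), and the noncoding Gm14023 (4.42 to 0.84 CPM, -2.26).

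Csf1r, the receptor on which microglia depend for survival, stood at 9360, 9920, 8880, 8710, and 9520 CPM in Input and at 13200, 14400, 12600, 12300, and 12700 CPM in TRAP. The groups did not overlap, and the log2 fold change was 0.49 ± 0.0274 (adjusted p = 2.48e-10). Of 30 homeostatic microglial genes, 22 rose and 3 fell (30.0% and 34.2% of all genes did). Their median was 0.223, and every change was under 2-fold. All 30 were at 20 CPM or more, where the median over all genes was 0.093. The fractalkine receptor Cx3cr1 rose by 0.40 (3410 to 4510 CPM), Ctss by 0.36, and the purinergic receptor P2ry12 by 0.21. Cst3, a small secreted protease inhibitor, had values of 8050 ± 790 and 8380 ± 348 CPM (0.06, adjusted p = 0.269). The 3 that fell were Tyrobp, the adaptor of Trem2 (630 ± 40.5 to 392 ± 14.9 CPM, -0.68 ± 0.0455, adjusted p = 2.45e-09), and the transcription factors Sall1 (-0.18) and Sall3 (-0.11). Trem2 itself rose by 0.13, so receptor and adaptor moved apart.

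Lysosomal genes rose most evenly. Of 30 tested, 25 rose and 1 fell (30.0% and 34.2% of all genes did), and the median was 0.367. These 30 were all at 20 CPM or more, where the median over all genes was 0.093 (0.303 over 1000 CPM). In 21 every TRAP library lay above every Input library (13.8% of all genes). Psap, the precursor of the saposins that help to break down sphingolipids, stood at 5480, 5600, 5260, 4860, and 5250 CPM in Input and at 7290, 7750, 7020, 6620, and 7000 CPM in TRAP (0.43 ± 0.0279, adjusted p = 1.69e-09). Ctsd, a lysosomal protease, rose by 0.18. The member that fell was Atp6v0c (-0.27), the small proteolipid subunit of the proton pump. Lysosomal genes held 6.46 ± 0.402% of Input and 7.36 ± 0.169% of TRAP reads.

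Chaperones followed the same direction, with 15 of 21 heat shock and chaperone genes rising and 2 falling (30.0% and 34.2% of all genes did). Their median was 0.289, and 0.304 for the 20 at 20 CPM or more, where that of all genes was 0.093. The endoplasmic reticulum members Hspa5 (844 ± 62.3 to 1240 ± 102 CPM, 0.56 ± 0.035, adjusted p = 1.13e-09) and Calr (1050 to 1500 CPM, 0.52) were among the largest, and the cytosolic Hspa8 rose by 0.33. The small mitochondrial cochaperonin Hspe1 fell by 0.67 (49.8 to 31.3 CPM). Antigen presentation genes gave 10 rises and 3 falls of 17 (median 0.177), with H2-K1 up by 0.45 and Tapbp by 0.48, while Cd74 was unmoved in value at 416 and 421 CPM (adjusted p = 1.0). The secreted complement protein gene C4b (118 ± 24.3 to 219 ± 51.9 CPM, 0.88), chosen after its values were seen, had a larger rise than these.

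Border macrophage genes had a higher median than the microglial ones. Of 14 tested, 8 rose (30.0% of all genes did) and the other 6 did not pass the test, with a median of 0.463 (mouse medians 0.234 to 0.597). The mannose receptor Mrc1 stood at 261, 465, 516, 307, and 397 CPM in Input and at 454, 856, 893, 490, and 677 CPM in TRAP, and rose in every mouse although the groups overlap (0.78 ± 0.0402, adjusted p = 9.74e-11). Cd163 rose by 0.65, F13a1 by 0.69, and Stab1, which is also among the microglial markers, by 0.56. Pf4, a small chemokine of these cells, had values of 35.1 and 33.6 CPM (adjusted p = 0.289). The summed level of 4 border macrophage markers was 375 to 715 CPM in Input and 607 to 1180 CPM in TRAP.

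**Figure D3:**
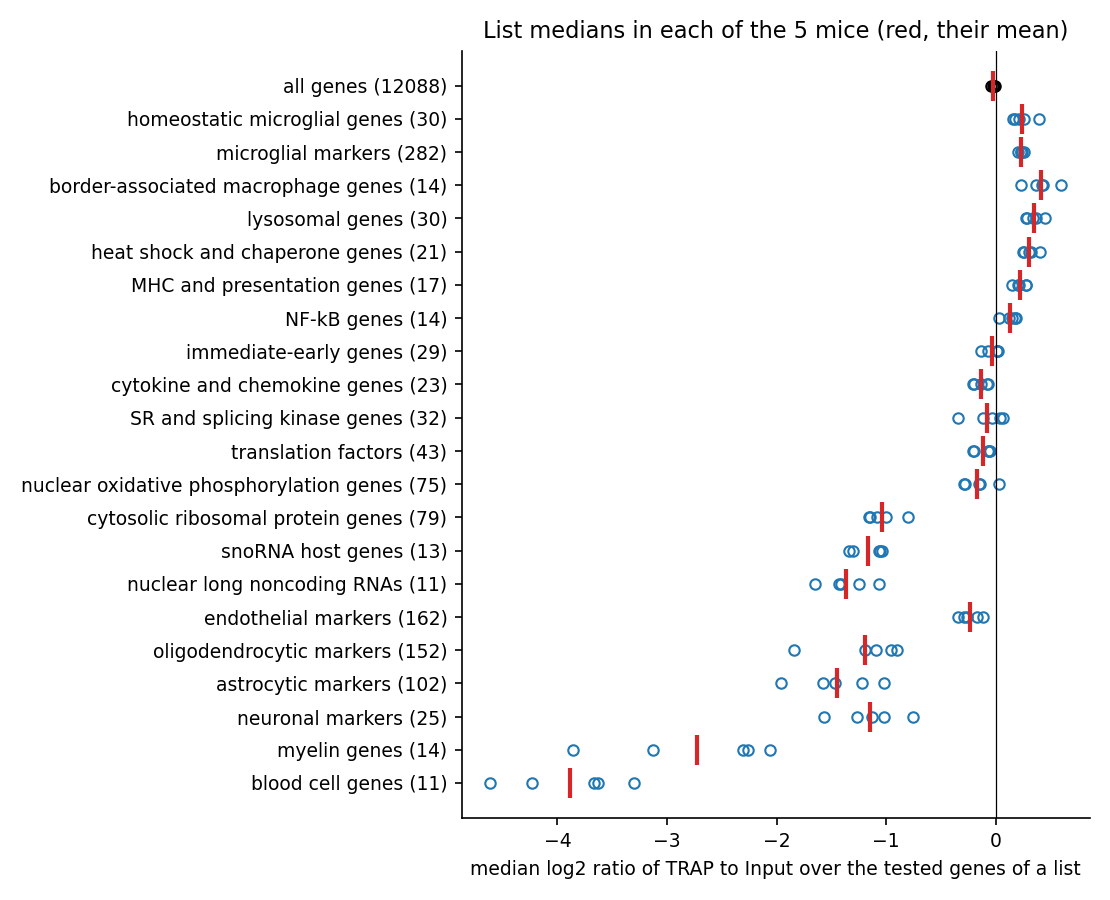
Median log2 ratio of TRAP to Input over the tested genes of each list (x axis), with 1 point for each of the 5 mice, a red bar at their mean, and the number of genes in brackets. A pseudocount of 0.5 CPM draws genes with few reads toward 0, so the blood and myelin medians are nearer 0 than in the fit. The ribosomal protein, snoRNA host, and nuclear noncoding lists lie left of 0 in every mouse, the microglial, lysosomal, and chaperone lists right of 0, and the myelin and blood lists spread the most between mice.

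Genes induced by handling of cells differed little between the fractions. Over all genes 30.0% rose and 34.2% fell, the shares to set beside each count here. Of 29 immediate-early genes, 8 rose and 12 fell, all by less than 2-fold (median -0.0712). Fos rose by 0.33 (3190 ± 370 to 4020 ± 527 CPM), Jun fell by 0.07 and Atf3 by 0.32, and Zfp36 was at 3430 CPM in both fractions (adjusted p = 0.989). Jund stood apart, as the largest fall of the group (2260 ± 349 to 1290 ± 211 CPM, -0.81 ± 0.0352, adjusted p = 1.17e-11). Of 14 NF-kB genes 6 rose and 1 fell (median 0.0715). Of 23 cytokine and chemokine genes 1 rose, Il16 (208 to 295 CPM, 0.50), and 12 fell (median -0.173). Ccl3 fell by 0.20 and Il1b by 0.23, Tnf was at 101 ± 28.2 and 106 ± 30 CPM (adjusted p = 0.261), and Cxcl14 was called lower at a low level (4.38 to 1.69 CPM). Interferon-stimulated genes gave 10 rises and 4 falls of 23 (median 0.151), with Irf9 up by 0.41. Of 13 genes of the integrated stress response 3 rose, Atf6 by 0.46 among them, and 4 fell, Atf4 by 0.37. Of 18 cell cycle genes 6 rose, with Mcm3 up by 0.41 and Pcna by 0.36, and 3 fell, with Stmn1 down (-0.43).

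Genes with short coding sequences had lower fold changes than longer ones. Over 6662 coding genes at 20 CPM or more, the log2 fold change went with coding length (Spearman's coefficient 0.338, across genes that share the same 10 libraries and are not independent replicates). In 5 bins of coding length with near equal numbers of genes the medians were -0.162 (78 to 828 bases), 0.049 (831 to 1260), 0.162 (1270 to 1780), 0.195 (1780 to 2720), and 0.165 (2720 to 23200). In the shortest bin 18.7% of genes rose and 54% fell, and in the fourth 60.9% rose and 14.9% fell. Without ribosomal protein genes, the coefficient was 0.318 over 6584 genes and the shortest bin had a median of -0.126. It was nearer 0 for transcript length (0.0991), GC content (0.0645), 5′ UTR length (-0.103), and 3′ UTR length (-0.081).

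Genes of oxidative phosphorylation, which encode subunits of the same complexes, showed the split inside a single pathway. Of 75 tested, 15 rose and 39 fell (30.0% and 34.2% of all genes did), with a median of -0.185. The 45 with a coding length under 500 bases had a median of -0.308, with 2 rises and 30 falls, and the 30 longer ones a median of 0.0653, with 13 rises and 9 falls (coefficient 0.588 over the 75). The ATP synthase subunits Atp5a1 (392 ± 29.2 to 527 ± 19.9 CPM, 0.43) and Atp5b (0.42) rose, as did Sdha (0.46) and Ndufs1 (0.49). The short Atp5e was called lower (42.5 ± 4.56 to 18.5 ± 2.08 CPM, -1.20), and Cox4i1 fell by 0.57. The same order of medians held in ribosomal protein genes (-1.14 for 50 shorter, -0.755 for 29 longer) and microglial markers (-0.102 for 23 shorter, 0.249 for 258 longer). Macf1, which encodes a very large linker of actin and microtubules, went against this order and was called lower (1060 ± 122 to 427 ± 51.7 CPM, -1.31 ± 0.039, adjusted p = 1.68e-13). The 26 mitochondrially encoded genes, translated on ribosomes without the tag, are not analysed here. Numbered zinc finger genes, 310 of them tested, gave 41 rises and 95 falls (median -0.0693).

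**Figure D4:**
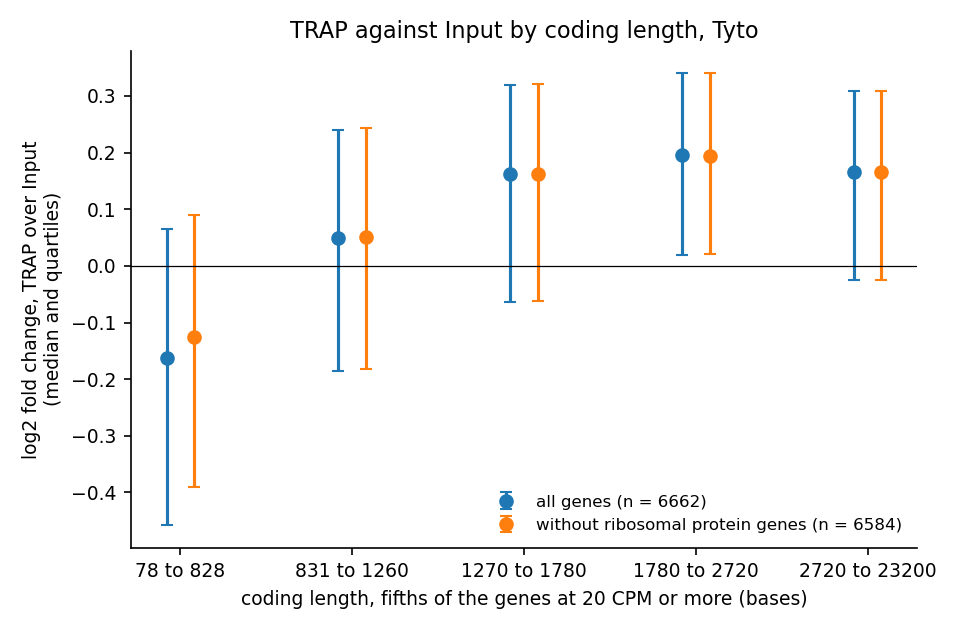
Median and quartiles of the log2 fold change of TRAP over Input (y axis) in 5 bins of coding length in bases (x axis) for genes at 20 CPM or more, in blue for all 6662 genes and in orange without ribosomal protein genes. The medians of all genes go from -0.162 in the shortest bin to 0.195 in the fourth, and the bars of neighbouring bins overlap.

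RNA of blood cells and myelin was at a low level in TRAP. Of 18 blood cell genes 15 were in the table and 11 were tested, all 11 fell, and 10 were called lower (median -5.4, with 10.5% of all genes called lower), 7 of the 11 having passed the filter through Input alone. Hba-a1, alpha globin, stood at 110, 224, 191, 115, and 93.1 CPM in Input and at 3.04, 8.66, 2.35, 0.902, and 2.96 CPM in TRAP (-5.40 ± 0.178, adjusted p = 3.91e-13), and Beta-s, a beta globin, went from 82.6 ± 36.1 to 2.24 ± 1.35 CPM (-5.19). Reads of the near-identical globin genes (Hba-a1 with Hba-a2, Beta-s with Hbb-b1) could be split between them. The neutrophil genes S100a8 and S100a9 had 11.9 and 19.8 CPM in Input, and their TRAP reads came to 5 and 11 over the 5 libraries, too few for a precise fold. Ngp had 11 CPM in Input and 8 TRAP reads in all. Ccr2, a monocyte receptor, had the smallest fall of the list (12.7 to 8.41 CPM, -0.60). The summed level of 4 blood markers was 164 to 410 CPM in Input and 2.03 to 13.5 CPM in TRAP.

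Myelin genes varied the most between mice. Of 14 tested, 12 fell, 11 of them called lower (10.5% of all genes were), and 6 of the 11 had passed the filter through Input alone. The transferrin gene Trf, which microglia also express, rose by 0.36 (2260 ± 166 to 2890 ± 170 CPM). Mbp, a protein that compacts myelin, stood at 166, 198, 121, 108, and 75.1 CPM in Input and at 48.7, 53.7, 47.2, 42.3, and 47.3 CPM in TRAP (-1.42 ± 0.117, adjusted p = 3.43e-08). The groups did not overlap, and the spread between mice lay in Input. By contrast, Cnp had 115 and 112 CPM (adjusted p = 0.93). Cldn11, the tight junction claudin of myelin, had 11.5 CPM in Input and 13 TRAP reads in all. Enpp2, chosen after its values were seen, went from 96.9 ± 36.9 to 5.51 ± 5.01 CPM (-4.12).

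Markers of the other brain cells split by level. Of 102 astrocytic markers tested, 69 were called lower (median -2.64), of 152 oligodendrocytic markers 85 (-2.05), of 25 neuronal markers 17 (-2.67), and of 162 endothelial markers 56 (-0.3, or 0.0261 with at least 10 counts in every library). Of all genes 10.5% were called lower. Of the marker genes called lower, 48, 69, 16, and 35 had passed the filter through Input alone, and the medians of those that passed in both fractions were -0.582, -0.194, -0.651, and -0.0309. At 20 CPM or more, the medians were -0.0867 over 15 astrocytic, -0.0411 over 40 oligodendrocytic, and 0.254 over 49 endothelial genes. The members with the most reads of these lists include genes that microglia express themselves, such as Apoe (up by 0.32) and Sema4d (up by 0.34). Of 144 macrophage genes 29 rose and 48 fell, against 30.0% and 34.2% of all genes (median -0.0394). Of the 48, 23 were called lower, 13 of the 23 having passed the filter through Input alone. These 5 lists and the microglial markers are the gene lists of the study. The defining markers of astrocytes and neurons were at a low level in Input. The summed level of Gfap, Aqp4, Slc1a2, and Aldoc was 33.8 to 154 CPM in Input and 2.68 to 16 CPM in TRAP, and that of Syt1, Snap25, Rbfox3, and Slc17a7 was 6.18 to 15.7 and 0.958 to 1.73 CPM. All 4 markers of astrocytes, oligodendrocytes, neurons, and blood were called lower, and none of these markers was at 0 in every TRAP library. Cldn5, Flt1, and Ly6c1 of the endothelial markers were called lower, while Pecam1 rose by 0.40. The summed level of these 4 was 68.5 to 107 CPM in Input and 72.7 to 100 CPM in TRAP, so it did not fall as the single markers did.

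The genes called higher were 6. Ugt1a7c, a glucuronidation enzyme (chr1:88095001-88220002, + strand), was the single one with a mean over 5 CPM. It stood at 58.2, 55.6, 48.2, 41.6, and 60.9 CPM in Input and at 184, 197, 62.8, 57, and 195 CPM in TRAP (1.23 ± 0.165, adjusted p = 7.83e-06). TRAP was at 184 to 197 CPM in mice 1, 2, and 5, and at 57 and 62.8 CPM in mice 3 and 4, where it was close to Input. The gene overlaps other Ugt1a genes that share its last exons, so which of them the reads belong to is uncertain. The others, chosen after their values were seen, were Rad18 (1.22 to 3.05 CPM), Gm13034 (0.865 to 1.94 CPM), Olfm4 (2.61 to 5.85 CPM), Gpat2 (0.787 to 1.58 CPM), and Ceacam18 (0.572 to 1.13 CPM). Gpat2 and Ceacam18 overlapped between the fractions. Leaving out mouse 1, 2, 4, or 5 gave 13, 10, 14, and 14 genes called higher.

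The fold changes of the Tyto-sorted cells were then set beside those of other preparations in a paired fit of 40 libraries from 20 preparations, with 15134 genes tested. These were FACSAria-sorted cells and autoMACS-separated cells (4 mice each), cells sent from autoMACS to Tyto (3 mice), and the cell suspension before any sort (Cell, 4 mice). Of the 5 Tyto mouse numbers 3 also occur among the FACSAria libraries, and the tests of a difference treated them as independent. The 3 mouse numbers of autoMACS to Tyto also occur among the autoMACS libraries, so the 20 preparations are not from 20 separate mice. The median log2 fold change of ribosomal protein genes was -1.04 in Tyto, -0.95 in FACSAria, -1.02 in autoMACS, -1.28 in autoMACS to Tyto, and -0.886 in the cell suspension. Rpl32 had -1.68, -1.41, -1.59, -1.91, and -1.42 in the same order, with adjusted p of the difference from Tyto of 1.0 (FACSAria), 0.883 (autoMACS), and 0.161 (cell suspension). Fth1 had -1.75, -1.70, -1.32, -1.84, and -2.72, and its Tyto value differed from the cell suspension by 0.96 (adjusted p = 2.49e-05). Ftl1 had -1.45, -1.32, -1.20, -1.43, and -0.65, a difference the other way (-0.81, adjusted p = 1.1e-05). The medians of ribosomal protein genes and both ferritin values were thus below 0 in all 5 preparations, sorted or not.

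Against FACSAria the TRAP effect differed in 6 genes (0.0396%), all lower in Tyto, and 723 had an unadjusted p under 0.05. By the rule these were the tubulin Tubb4a (difference -3.03 ± 0.516, adjusted p = 0.0762), Zfp365, and Plcb1. Aplp1, Adamts4, and Ptn were the others. Tubb4a was at 19.1 ± 13.5 CPM in Tyto-Input and 3.01 ± 2.11 CPM in FACSAria-Input, and at 0.737 and 1.03 CPM in TRAP, so the 2 preparations lay closer in TRAP than in Input. The 6 calls did not hold without mouse 1, 2, or 4 (0 each), and 3 were made without mouse 3. Without the block on the preparation there were 0 such genes, and 24 with limma on the deposited log2 values. Against autoMACS 21 genes differed (0.139%), 7 higher and 14 lower. The lower ones with the smallest adjusted p were Aplp1 (-2.45 ± 0.35, adjusted p = 0.00322), Gprc5b (-2.78), and Kif1a (-2.09), whose Input levels were 34.4, 10.2, and 12.1 CPM in Tyto and 5.2, 1.96, and 1.48 CPM in autoMACS. The higher ones were Cxcr4 (1.08 ± 0.192, adjusted p = 0.023), a chemokine receptor, Itga4 (1.18), and the leukocyte sialoglycoprotein Spn (2.21). Spn was at 16.5 ± 5.86 CPM in autoMACS-Input and 2.3 ± 0.836 CPM in Tyto-Input. The count against autoMACS was 8 without mouse 1 or 2, 49 without mouse 4, and 3 without the block.

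Against the cell suspension the TRAP effect differed in 3880 genes (25.6%), 1697 higher (11.2%) and 2183 lower (14.4%) in Tyto. With DESeq2's size factors the split was 2095 higher and 1711 lower, and with limma on the deposited log2 values 3817 and 1501. The median difference over all genes was -0.0766, 0.108, and 0.28 under these scalings, so a direction is given here only for genes and lists that lie far from those medians. Csf1r had a log2 fold change of 0.52 in Tyto and 2.60 in the cell suspension (difference -2.08, adjusted p = 1.21e-08). Homeostatic genes had medians of 0.251 and 2.55, all 30 called lower in Tyto, lysosomal genes 0.395 and 1.85 (20 of 30 called lower), and immediate-early genes -0.0492 and 1.71 (24 called lower). Irf8, a transcription factor of microglia, was at 695 ± 55 CPM in Tyto-Input and 95.6 ± 8.11 CPM in Cell-Input, but at 731 ± 60.7 and 607 ± 60.4 CPM in TRAP (difference -2.59, adjusted p = 1.77e-16). Lair1 (-2.39) and Rhoh (-2.62) showed the same levels pattern. In the other direction, the myelin gene Mag was at 53.8 CPM in Tyto-Input and 823 CPM in Cell-Input, and at 41.9 and 53.9 CPM in TRAP (difference 3.6, adjusted p = 4.31e-15). Kif1b (2.41) and Hmgcs1 (2.0) were next. Oligodendrocytic markers gave 87 genes higher and 7 lower. Macf1 had -1.29 in Tyto and -0.05 in the cell suspension (difference -1.23, adjusted p = 1.21e-07).

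Alpha globin lay apart in value between the preparations, but the tests of the difference did not pass. Hba-a1 had -5.41 in Tyto, -2.03 in FACSAria, -2.63 in autoMACS, and -5.67 in the cell suspension (adjusted p of the differences from Tyto 0.139, 0.189, and 0.781). Neat1 had -3.90, -3.40, -3.78, and -2.25, and its Tyto value differed from the cell suspension (-1.64, adjusted p = 0.00642). Tpt1 had -1.29, -1.27, -1.30, and -1.38 (adjusted p of the difference from the cell suspension 0.574). Tyrobp was at -0.65 in Tyto, -0.67 in FACSAria, and -0.31 in autoMACS, but at 2.07 in the cell suspension (adjusted p of the difference 3.5e-16). Fos was at 0.36, 0.25, 0.32, and 2.24 (adjusted p of the difference from the cell suspension 1.63e-15).

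**Figure D5:**
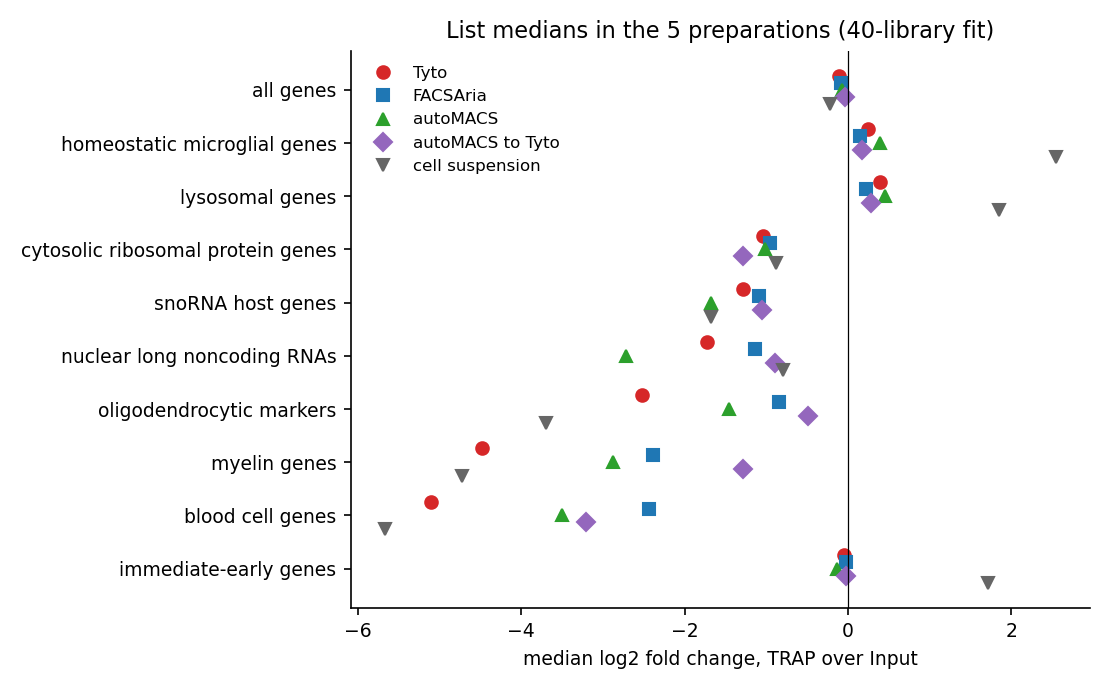
Median log2 fold change of TRAP over Input (x axis) of 9 gene lists and of all genes in the 5 preparations, from the fit of 40 libraries. Homeostatic, lysosomal, and immediate-early genes of the cell suspension lie far to the right of the sorted cells, while the ribosomal protein medians of all 5 preparations lie between -1.28 and -0.886.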

How the data were processed

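Poly(A) RNA libraries were sequenced with strand kept. The authors processed the reads in Strand NGS: they aligned them to mm10, removed duplicates, quantified them per gene, and kept genes with more than 5 reads in all samples of at least 1 group. The deposited expected counts (36.2% of the Tyto values whole) were rounded to whole numbers here. The deposited log2 values, made by the authors with DESeq2 and set per gene against the median of Tissue-Input, were used in 1 alternative. Of the listed genes 23 had symbols turned into dates, which were restored from their identifiers, and 15873 identifiers were found in RefSeq. Columns of the sort table hold 1 sample each.

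Groups came from the sample labels. The main model was edgeR's quasi-likelihood fit (version 4.0.16, R 4.3.3) on TMM-scaled counts, with mouse and fraction as terms. The thresholds, FDR 0.1 and fold 2, are those of the authors. Input and TRAP of a mouse came from 1 homogenate. Deviations from the fraction means correlated within mice (r 0.319 to 0.514, 5 pairs). Between mice r was -0.227 to 0.019 (20 pairs), but deviations from a mean cancel over the mice, which by itself pulls these values below 0. A second fit took 40 libraries with the preparation as a block and gave the differences of TRAP effects. Ratios per mouse used a pseudocount of 0.5 CPM. The edgeR fit was tested on simulated counts for the Tyto comparison and for the difference from FACSAria, and the other steps were not. The alternatives were DESeq2 1.42.0, limma 3.58.1 on log2 values, 2 filters, no block, no fold threshold, and leaving out each mouse. Intervals are SD over mice or SE of the fit, and counts of few reads carry counting error as well.

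Members and gene lists were chosen with earlier results of these data known. Genes were named by rule: the 10 largest and 5 most abundant called changes with the same sign in all 5 mice and a mean of at least 5 CPM, up to 4 members with the most reads of each list, the 3 genes with the smallest adjusted p in each direction of a difference, and members on which a statement about a list turns. Any other gene was chosen after its values were seen, whether or not the text says so where the gene is named. Results that need items withheld here are not reported.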

Additional observations from a re-analysis of the deposited data

Results flagged for a closer look

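For each named gene and list, the 5 log2 ratios of TRAP to Input were searched for a mouse far from the other 4. Of 194 sets of values 15 were picked out, and mouse 4 was the one in 9 of them. A single set is picked out by chance in about 1 in 20 cases. The 194 sets come from the same 5 mice and are not independent, so that rate gives no chance level for the 15. In mouse 4, Cst3 had 0.37 (others -0.05 to 0.03), Tmem119 0.30 (others -0.01 to 0.05), Ctsd 0.35 (others 0.12 to 0.17), and Tyrobp -0.47 (others -0.77 to -0.71). Also in mouse 4, Eif4g2 had 0.32 (others 0.10 to 0.13), Tgfb1 0.03 (others -0.21 to -0.15), and Ddx5 0.04 (others 0.25 to 0.31). The genes called higher Rad18 and Olfm4 had 0.34 and 0.59 there (others 1.04 to 1.32 and 1.08 to 1.17). In mouse 5, Enpp2 had -1.80 (others -5.33 to -4.48), Macf1 -1.43 (others -1.30 to -1.26), and Nfkb1 0.22 (others 0.29 to 0.30). Atf6 had 0.58 in mouse 1 (others 0.41 to 0.45), Hspa5 0.63 in mouse 2 (others 0.52 to 0.55), and Trim30a 0.41 in mouse 3 (others 0.16 to 0.20).

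The TRAP effect in Tyto differed, by a test of the difference itself, from that in FACSAria in 6 genes, from that in autoMACS in 21 genes, and from that in the cell suspension in 3880 genes.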

How the results depend on the processing

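The 1270 calls of the Tyto comparison became 1257 with DESeq2's size factors, 1255 without the replicate block, 1255 with DESeq2's Wald test, and 1277 with limma. They became 2079 with no filter (2068 lower, 11 higher), 414 with at least 10 counts in every library (411 lower, 3 higher), 7755 with no fold threshold (3621 higher, 4134 lower), 2368 in the fit of 40 libraries (2361 lower), and 126 among genes of at least 20 CPM (125 lower, 1 higher), the last added after the data were seen. Without 1 mouse at a time they numbered 1273 to 1442, with 1263 to 1428 lower and 8 to 14 higher.

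The difference from FACSAria (6, all lower) had 0 calls with at least 10 counts in every library and 0 without the replicate block, 47 with the Wald test, 24 with limma (22 lower, 2 higher), and 0 to 8 without 1 mouse. The difference from autoMACS (21) had 3 without the block (1 higher, 2 lower), 66 with no fold threshold (15 higher, 51 lower), and 8 to 49 without 1 mouse (1 to 14 higher, 5 to 35 lower). Of its higher calls there were 12 with at least 10 counts in every library, 11 with limma, and 1 with the Wald test, which made 22 lower. The difference from the cell suspension (3880) had 8028 with no fold threshold (3214 higher, 4814 lower), 3817 higher with limma, 1314 lower with at least 10 counts in every library, and 3720 to 3765 without 1 mouse (1619 to 1672 higher, 2058 to 2128 lower). The cause of these shifts was not tested.

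Of 1946 values of named genes 1933 kept their side of the thresholds and 0 reversed. Eef1b2, Gpat2, and Ceacam18 lost the call under some alternatives, and Lars2 and Pcdhgb2 gained one. Of 336 list medians 306 moved by less than the spread between mice. The endothelial median reversed, to 0.0261, with at least 10 counts in every library. That filter, which drops the genes lowest in TRAP, also gave medians of -0.488 (astrocytic), -0.177 (oligodendrocytic), -0.681 (neuronal), and -0.929 (myelin). Genes with a few reads in TRAP carry little precision, and 5 mice set the limit for small effects.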
